A study of Mus musculus with 6 samples.

Results

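The interferon-inducible p200 family is a set of DNA-binding proteins encoded side by side on mouse chromosome 1. Its 9 members here (Aim2, Ifi203, Ifi204, Ifi205, Ifi207, Ifi208, Ifi209, Ifi211 and Mndal) were taken by gene name from a count table of 54532 genes, and all 9 were found. The cells were cultured mouse endothelial cells, which line blood vessels, and both groups were exposed to lentivirus for 72 h. The controls received the empty vector (3 libraries) and the other group a vector for overexpression of RBPMS (3 libraries), an RNA-binding protein that takes part in splicing. The comparison asks how the family's transcripts differ after RBPMS overexpression. The labels used here name neither the strain, age and sex of the source animals nor the promoter of the vector. Control cells carry virus too, and there was no uninfected group among these samples. The labels do not say whether libraries of a group came from separate cultures, and the p-values then reflect the spread among these libraries alone, which could be technical.

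Most p200 proteins join an N-terminal pyrin domain, which binds other pyrin domains, to HIN domains, which bind DNA. Aim2 is the best known of them: it binds DNA in the cytosol and, through the adaptor Pycard (ASC), assembles the inflammasome that activates caspase-1. Ifi204 is the mouse protein most often compared with human IFI16, which takes part in DNA sensing through STING, and Mndal and Ifi203 are nuclear proteins related to human MNDA. Transcription of many of these genes is raised by interferon through the interferon-stimulated response element, a promoter site bound by interferon regulatory factors and STAT complexes.

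The promoters of 6 members hold the letters of such an element. The stretch around them is printed because the same pattern stands before members called higher and members not called or not tested. Promoters (250 bases before to 50 bases after the start, RefSeq, GRCm38.p6) were given for 8 members, all but Ifi204. The letters searched were GAAA, any 2 bases and GAAA again, on both strands. They were present for 6 of these 8 members (Ifi203, Mndal, Ifi207, Ifi208, Ifi211 and Ifi205) and for 3.99% of all 27025 genes of the promoter table (3.44% of its 32851 promoters). The capitals mark the match, with 20 bases on either side, read in the direction of the gene.
Ifi203: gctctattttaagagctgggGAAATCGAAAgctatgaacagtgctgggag
Mndal: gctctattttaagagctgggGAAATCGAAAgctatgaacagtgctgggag
Ifi207: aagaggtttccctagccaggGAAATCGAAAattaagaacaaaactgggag
Ifi208: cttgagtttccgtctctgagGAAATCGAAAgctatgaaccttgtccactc
Ifi211: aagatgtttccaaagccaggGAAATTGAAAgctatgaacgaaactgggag
Ifi205: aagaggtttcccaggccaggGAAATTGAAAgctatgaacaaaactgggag

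The stretches lie at chr1:173942498-173942547 (Ifi203, minus strand), chr1:173880194-173880243 (Mndal, minus strand), chr1:173741821-173741870 (Ifi207, minus strand), chr1:173673587-173673636 (Ifi208, plus strand), chr1:173913054-173913103 (Ifi211, minus strand) and chr1:174031860-174031909 (Ifi205, minus strand). The match begins at -35 for Ifi203, -36 for Mndal, -37 for Ifi211, -41 for Ifi207, -58 for Ifi208 and -134 for Ifi205, counted from the annotated start. The 50-base stretches of Ifi203 and Mndal were identical, and those of Ifi205 and Ifi211 agreed at 46 of 50 bases, whereas Ifi207 and Ifi208 agreed at 25 of 50. The form GAAATCGAAA stood before 4 members (Ifi203, Mndal, Ifi207 and Ifi208). In all it was in 16 of the 32851 promoters, of which 7 belong to p200 genes. That form was counted after the sequences had been seen. Mndal and Ifi205 each held a further match on the opposite strand, for Mndal in the promoter of a second annotated start. Ifi203 also has a further annotated start, whose promoter held no match. No match was found in the windows of Aim2 and Ifi209. The letters of a STAT site (TTC, any 3 bases, GAA, the same on both strands) were found for 0 of the 8 members and for 9.55% of all genes (8.3% of promoters). A match is a description of the letters and not evidence of binding.

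Because the genes are copies of one another, a read from one can be counted for another. Sharing was measured on GENCODE M21 transcripts (GRCm38) as the percentage of a gene's distinct 31-base words, the usual word length of Salmon, that also occur in another gene. Aim2 shared no word with any other p200 gene and 4.89% with genes outside the family. Its reads are therefore not split within the family by words of this length. Ifi207 shared 14.8% of its words with any gene, most of them with Ifi204 (7.54%), and Ifi203 shared 21.6%, most of them with its pseudogene Ifi203-ps (15.9%). For Mndal the share was 28.7%, for Ifi204 and Ifi208 it was 34% each, for Ifi205 22.1% and for Ifi209 47.2%. Ifi211 stood at the other end, with 78.9% of its words present in other genes, among them 49.5% in Ifi205 and 38.6% in Ifi204. The genes fell into blocks in this measure, with Ifi206, Ifi213 and Ifi208 sharing words with one another, Ifi209 with Ifi214, and another block running from Ifi207 to Ifi205.

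**Figure D1:**
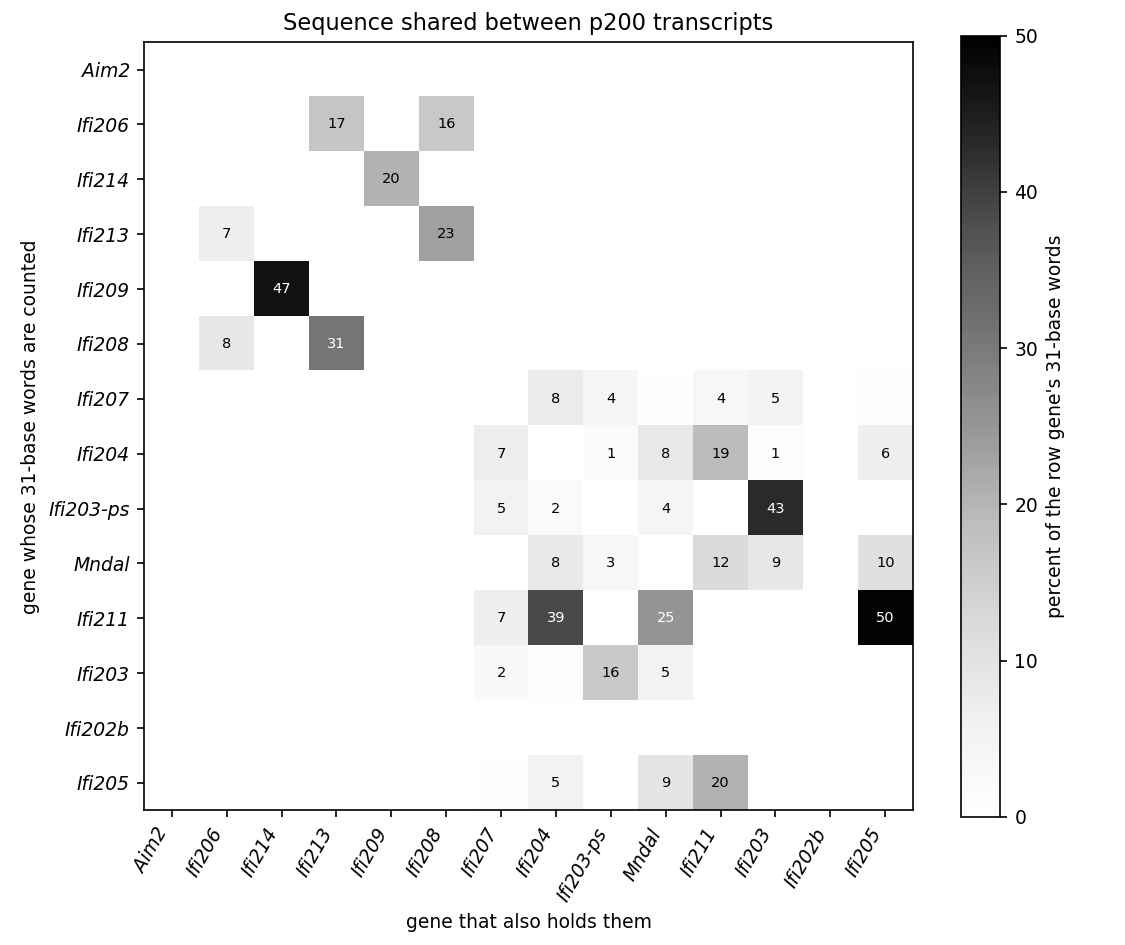
Percentage of each row gene's 31-base words that occur in the column gene, for the 14 p200 genes in the order of their position on chromosome 1 (values under 1% are not written). Ifi211 is covered most by its relatives, while the rows of Aim2 and Ifi202b are empty.

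The loci themselves also overlap. The Mndal gene body (chromosome 1, 173849126 to 173942491, minus strand, GRCm38) runs across Ifi211 and into Ifi203 (173920407 to 173942672, minus strand). Ifi203 and Mndal have 37 exonic bases in common, 1.02% of the exonic bases of Mndal, and Ifi211 and Mndal have 0. Aim2 (173350879 to 173466040, plus strand) overlaps Cadm3 on the opposite strand without a shared exonic base. Whether the counting used strand is not stated in these sources. The words shared between members thus lie mostly in similar exons at separate places, not in exons that overlap.

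Control replicate 3 stood apart from the other 5 libraries, and the tested members are given with and without it. For genes outside the family the fold changes, tests and group means are those without it unless stated. Levels given by library or as ranges include it. None of the genes outside the family was called by edgeR over all 6 libraries. Over the 13898 genes tested, the correlation of its log2 CPM with any other library was 0.959 to 0.965, whereas pairs of the remaining 5 gave 0.993 to 0.997. Total counts ran from 15779567 to 23076124 a library. Rbpms was at 55.2 to 57.1 CPM (counts scaled to a common library size with TMM, which corrects for composition) in controls and 131 to 148 CPM with RBPMS, a log2 fold change of 1.28 ± 0.10 (SE, edgeR adjusted p = 0.0606) over all 6 libraries and 1.27 ± 0.06 (adjusted p = 3.6e-11) without control replicate 3. The 12 endothelial markers summed to 15830 to 21110 CPM of the total count in controls and 18090 to 19050 CPM with RBPMS. The sums overlap only through control replicate 3, which had the lowest, while control replicates 1 and 2 both lay above the RBPMS libraries. Without control replicate 3 edgeR called 3.81% of all genes tested higher and 3.43% lower. Of the 12 markers it called 5, 2 higher and 3 lower. Those with the smallest p were Vwf (log2 fold change -0.45), Flt1 (-0.22), Erg (0.21) and Kdr (-0.21), and their part in the members' results was not tested. Over all 6 libraries 0 of the 12 were called, and these 4 stood at -0.18, 0.02, 0.32 and -0.01. Among markers of leukocytes, in which p200 genes are best known, Adgre1, Cd3e, Ms4a1 and Tyrobp had 0 counts in every library and Ptprc 0 to 3. Lyz2 stood at 1.19, 0.617 and 2.29 CPM in controls (replicates 1, 2 and 3) and 1.52, 1.58 and 1.15 CPM with RBPMS. It was not called (log2 fold change 0.65 ± 0.37, edgeR adjusted p = 0.338 without control replicate 3, and 0.02 over all 6 libraries). Cd79a had 2 to 9 counts in controls and 2 to 12 with RBPMS. The 13 leukocyte markers summed to 43.7 to 48.0 CPM in controls and 55.7 to 60.5 CPM with RBPMS, nearly all of it Cd68, a lysosomal protein (41.4, 46.5 and 41.7 CPM in controls, 53.3, 58.3 and 54.8 CPM with RBPMS, log2 fold change 0.34 ± 0.07 and adjusted p = 0.00545 by edgeR without control replicate 3, 0.36 and 0.587 over all 6 libraries). The part of cells that express Cd68 or Lyz2 in the members' results was not tested. Fibroblast markers summed to 4.94 to 7.86 CPM over both groups and smooth muscle markers to 0.391 to 1.02 CPM. Mesothelial and epithelial markers summed to 21.3 to 26.3 CPM in controls and 17.1 to 21.2 CPM with RBPMS, without overlap. Most of that sum was Msln, which was not called (log2 fold change -0.32 ± 0.11, edgeR adjusted p = 0.0773 without control replicate 3).

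In control cells the family was made up mainly of Aim2 and Ifi203. Per kilobase of the table's gene length, the level in controls was 10.8 ± 0.119 CPM for Aim2 (SD, n = 3), 3.71 ± 0.259 for Ifi203, 2.11 ± 0.136 for Mndal and 1.31 ± 0.152 for Ifi204. These 4 levels lay further apart than their spread. Ifi211 (0.361 ± 0.269 CPM per kilobase), Ifi207 (0.316 ± 0.0861) and Ifi208 (0.281 ± 0.0691) followed and did not differ from one another beyond their spread, and neither did Ifi209 (0.0763 ± 0.0540) and Ifi205 (0.0640 ± 0.0492) at the bottom. With RBPMS the levels were 11.4 ± 0.221 CPM per kilobase for Aim2, 5.38 ± 0.683 for Ifi203, 2.84 ± 0.144 for Mndal, 1.24 ± 0.0561 for Ifi204 and 1.03 ± 0.0915 for Ifi207. Ifi207 thus moved up from the 3 low genes to just below Ifi204, while Ifi211 (0.543 ± 0.172), Ifi208 (0.319 ± 0.0695), Ifi209 (0.0719 ± 0.0314) and Ifi205 (0.0403 ± 0.0106) stayed low.

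**Figure D2:**
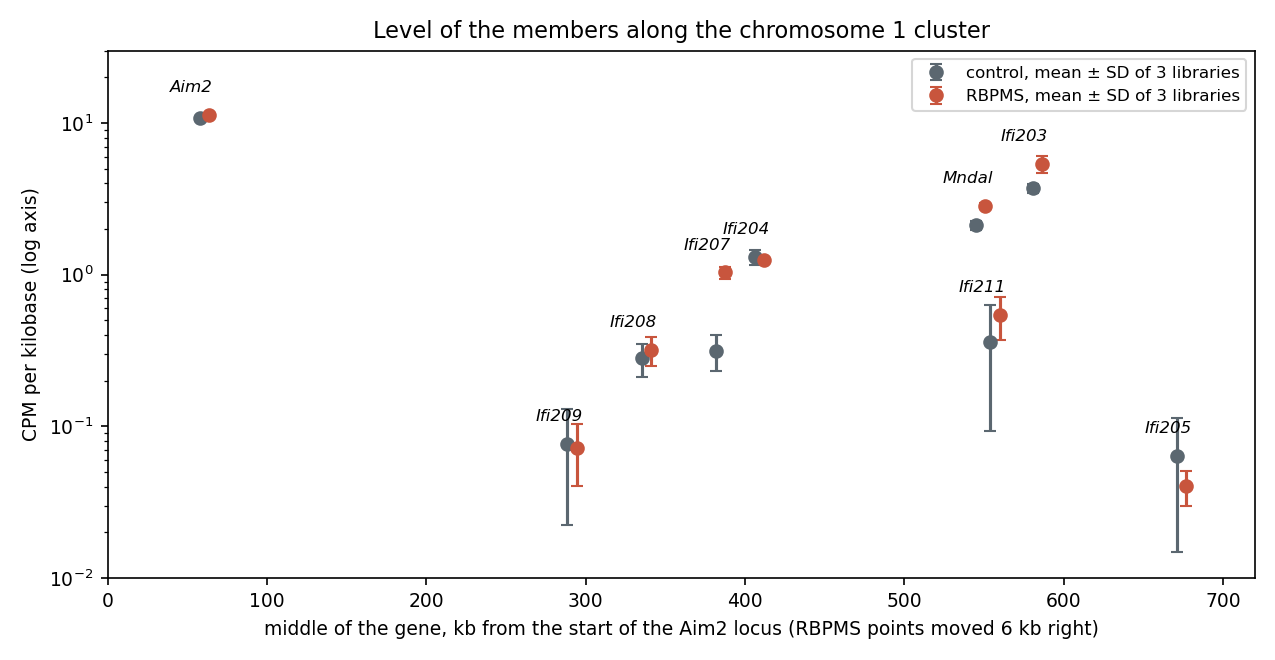
Level of the 9 members in CPM per kilobase of gene length (log axis; mean and SD of 3 libraries a group) against the position of the gene's middle, in kb from the start of the Aim2 locus. Aim2 is highest in both groups, and Ifi207 shows the widest gap between the groups.

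After RBPMS overexpression 3 members rose and 0 fell in the fit without control replicate 3: Ifi207, Ifi203 and Mndal. The other members that could be tested were Aim2, Ifi204, Ifi208 and Ifi211, and none of them passed. In that edgeR quasi-likelihood fit (Benjamini-Hochberg adjusted p under 0.05), 3.81% of the 14123 genes tested were called higher and 3.43% lower. Over all 6 libraries edgeR called 0 members and 0% of 13898 genes, with 3 members (the same 3) at an unadjusted p under 0.05 and 3.48% of all genes higher at that level. There DESeq2 called 1 member, Ifi207, and 56 of all 13898 genes (41 higher and 15 lower), and limma-voom called 0 members and 0 genes. Over all 6 libraries the RBPMS values lay above all controls for 4 of the 9 members (Ifi203, Ifi207, Mndal and Aim2) and for 12.2% of the genes tested, and below all controls for 0 members. In bulk RNA, more RNA per cell and more cells that express a gene cannot be told apart. Of the 9 members, Ifi205 and Ifi209 were left out by the filter on low counts. Ifi211 passed it through the 3 RBPMS libraries and control replicate 1.

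Ifi207 had the largest fold of the members tested. Ifi207 (ENSMUSG00000073490, 173723427 to 173741747, minus strand) encodes an interferon-inducible member with a pyrin domain. The counts of the controls were 15, 23 and 20 (replicates 1, 2 and 3), against 72, 83 and 59 for the RBPMS libraries. In CPM these are 0.943, 1.42 and 0.881 against 3.52, 3.86 and 3.23. The RBPMS libraries were all higher than every control, and control replicate 3 was the lowest. The log2 fold change was 1.58 ± 0.27 (SE, adjusted p = 0.0010) without control replicate 3, which is 2.99-fold, and 1.72 ± 0.25 (adjusted p = 0.353) over all 6 libraries, both by edgeR. By DESeq2 the adjusted p over all 6 libraries was 0.000125. Against a threshold of 1.5-fold rather than of no change, Ifi207 was not called (edgeR adjusted p = 0.174).

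Ifi204, the gene that shares most words with Ifi207, did not move with it. Its levels were 5.22, 4.13 and 4.63 CPM in controls and 4.30, 4.33 and 4.66 CPM with RBPMS, and the groups overlapped. Its log2 fold change was -0.08 ± 0.18 (edgeR adjusted p = 0.862) without control replicate 3 and -0.07 ± 0.16 (adjusted p = 0.828) over all 6 libraries. Within a library, the ratio of Ifi207 to Ifi204 counts was 0.181, 0.343 and 0.191 in controls and 0.818, 0.892 and 0.694 with RBPMS, so the ratio separated the groups. The 2 genes summed, which a split of reads between them would leave unaltered, came to 5.74 ± 0.365 CPM without and 7.97 ± 0.192 CPM with RBPMS overexpression (SD, n = 3 each), a ratio of 1.39.

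Ifi203 was the abundant member that rose. Ifi203 (ENSMUSG00000039997) had 411, 421 and 520 counts in controls and 833, 774 and 576 with RBPMS. In CPM it stood at 25.8, 26.0 and 22.9 in controls and at 40.7, 36.0 and 31.6 with RBPMS. The RBPMS libraries were all higher, with a wider spread among themselves than the controls had. The log2 fold change was 0.48 ± 0.09 (1.40-fold, edgeR adjusted p = 0.00270) without control replicate 3 and 0.54 ± 0.13 (adjusted p = 0.587) over all 6 libraries.

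Mndal, whose locus runs into Ifi203, rose by a similar amount on fewer counts. Mndal (ENSMUSG00000090272) was at 7.86, 7.10 and 8.02 CPM in controls and 10.4, 9.72 and 10.7 CPM with RBPMS, from 115 to 213 counts a library. The groups did not overlap, and control replicate 3 was the highest control. The log2 fold change was 0.46 ± 0.13 (edgeR adjusted p = 0.0339) without control replicate 3 and 0.42 ± 0.13 (adjusted p = 0.587) over all 6 libraries. This call was the least firm of the 3. With 1 more library left out it was lost without control replicate 1 (adjusted p = 0.0913), control replicate 2 (0.203), RBPMS replicate 1 (0.0902) or RBPMS replicate 3 (0.0693), while the fold stayed positive. Limma-voom gave an adjusted p of 0.0514 and DESeq2 0.103 in the same 5 libraries.

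Ifi203 and Mndal together, a sum that does not depend on how reads were split between the overlapping loci, stood at 32.6 ± 1.45 CPM in controls and 46.4 ± 4.45 CPM with RBPMS (SD, n = 3 each). That is a ratio of 1.43, and 1.39 without control replicate 3. Their counts kept a ratio of 2.86 to 3.66 in controls and 2.94 to 3.91 with RBPMS, and these ranges overlap. The pseudogene Ifi203-ps, 42.9% of whose words are in Ifi203, was at 1.70, 0.987 and 0.925 CPM in controls and 1.86, 2.42 and 2.91 CPM with RBPMS. It was not called (log2 fold change 0.83 ± 0.31, edgeR adjusted p = 0.117 without control replicate 3, and 1.00 ± 0.32 with 0.587 over all 6). Whether its reads came from its own locus or from Ifi203 cannot be told apart where the words are shared.

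**Figure D3:**
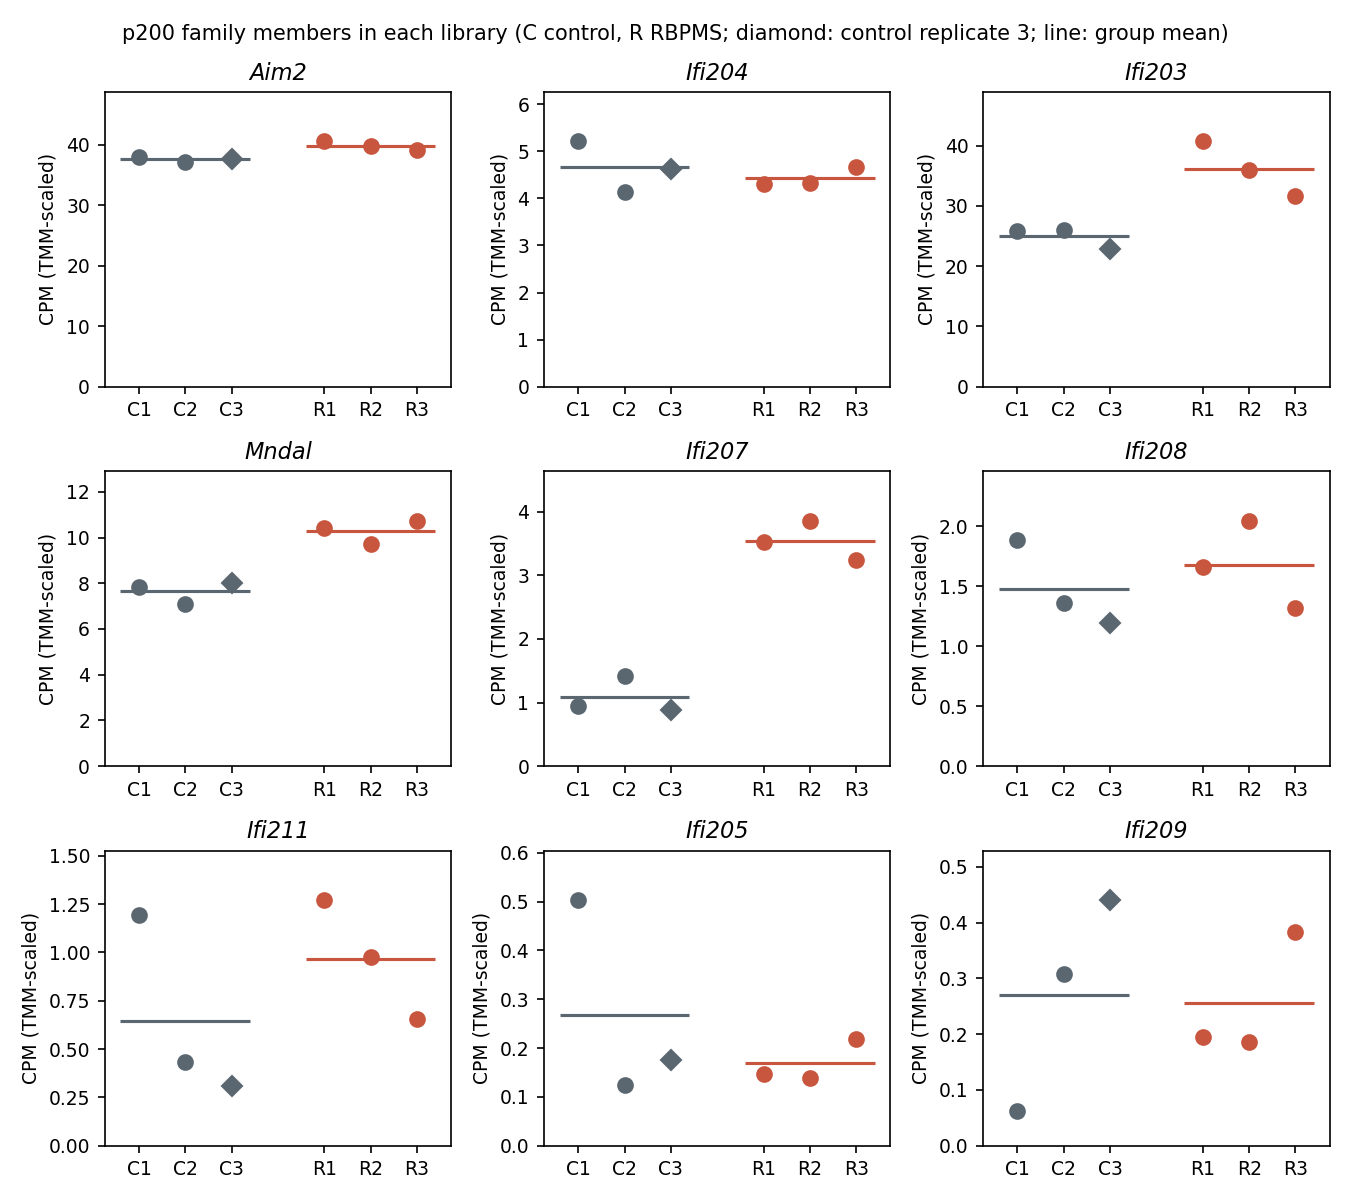
TMM-scaled CPM of each member in the 6 libraries (C1 to C3 control, R1 to R3 RBPMS, diamond for control replicate 3, line for the group mean, each axis from 0). The groups are apart for Ifi203, Mndal, Ifi207 and, by a narrow margin, Aim2, and overlap for the other 5 members.

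Aim2, the inflammasome sensor, was at nearly the same level in both groups. Aim2 (ENSMUSG00000037860) had 603 to 857 counts in controls and 713 to 858 with RBPMS, which is 38.0, 37.2 and 37.8 CPM against 40.6, 39.9 and 39.1 CPM. The RBPMS libraries were all above the controls, but by little. The log2 fold change was 0.09 ± 0.07 (edgeR adjusted p = 0.563) without control replicate 3 and 0.08 ± 0.09 (adjusted p = 0.676) over all 6 libraries. Control replicate 3 stood at 1.00 times the mean of the other controls. Relative to Aim2 in the same library, the Ifi203 count was 0.679, 0.698 and 0.607 in controls and 1.00, 0.902 and 0.808 with RBPMS. The share of the family's counts that Aim2 took was 47.9% ± 1.43 in controls and 41.0% ± 1.52 with RBPMS (SD, n = 3), while Ifi203 took 31.7% ± 1.63 and 37.0% ± 2.61.

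For the other 4 members the groups overlapped. Ifi208 was at 1.89, 1.36 and 1.19 CPM in controls and 1.66, 2.05 and 1.31 CPM with RBPMS, with a log2 fold change of 0.06 ± 0.31 (edgeR adjusted p = 0.948) without control replicate 3 and 0.20 ± 0.29 (adjusted p = 0.743) with it. Control replicate 1 lay within the range of the RBPMS libraries, as did control replicate 2. Ifi211 had 19, 7 and 7 counts in controls and 26, 21 and 12 with RBPMS, and its log2 fold change was 0.27 ± 0.44 (adjusted p = 0.799) without control replicate 3 and 0.64 ± 0.54 (adjusted p = 0.615) over all 6 libraries. Control replicate 1 alone put the controls inside the RBPMS range. Ifi205, with 2 to 8 counts in controls and 3 to 4 with RBPMS, and Ifi209, with 1 to 10 and 4 to 7 counts, were removed by the filter on low counts. With no filter they were tested too, and neither was called by edgeR in either set of libraries.

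**Figure D4:**
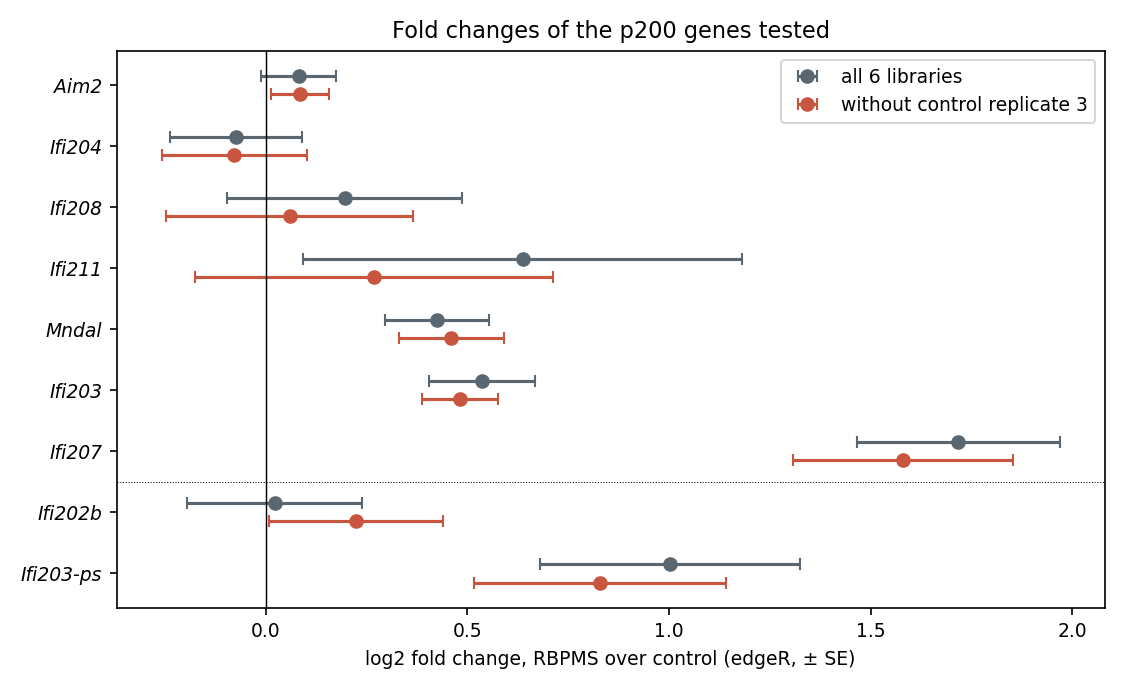
Log2 fold change of RBPMS over control with its SE from edgeR, over all 6 libraries and without control replicate 3, for the 7 members tested and, below the dotted line, 2 further p200 genes. Of the members, Ifi207, Ifi203 and Mndal lie above 0 by several SE in both fits. The intervals of Ifi204 and Ifi208, the 6-library interval of Aim2 and that of Ifi211 without control replicate 3 include 0. The pseudogene Ifi203-ps also lies above 0 in both fits but was not called.

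As a whole the family stood at 81.5, 78.1 and 76.3 CPM in controls and 103, 97.1 and 91.9 CPM with RBPMS. The groups did not overlap. The group means had a ratio of 1.24, or 1.22 when control replicate 3 was dropped. Left out of the sum, Ifi203 lowered the 6-library ratio to 1.14 and Aim2 raised it to 1.40. Ifi203 thus made up the largest part of the difference in the sum, for which no test is given.

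The table holds 5 further p200 genes. Ifi202b, which has HIN domains but no pyrin domain and is known as an antagonist of Aim2, was at 2.77, 2.96 and 4.10 CPM in controls and 3.47, 3.02 and 3.56 CPM with RBPMS. The highest value was that of control replicate 3, and the log2 fold change was 0.22 ± 0.22 (edgeR adjusted p = 0.618) without that library and 0.02 ± 0.22 with it. Ifi206, Ifi213 and Ifi214 had 0 to 2 counts in every library. The surroundings of the cluster gave few counts. Within 500 kb on either side of its 681 kb, or between its genes, the table lists 47 genes outside the family, of which 9 had any count and 0 enough for a test.

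Control replicate 3 stood below both other controls for Ifi211, Ifi208, Ifi207 and Ifi203, and close to them for Ifi204, Aim2 and Mndal. Relative to the mean of the other controls its level was 0.379-fold for Ifi211, 0.733-fold for Ifi208, 0.746-fold for Ifi207, 0.884-fold for Ifi203, 0.989-fold for Ifi204, 1.00-fold for Aim2 and 1.07-fold for Mndal. For Ifi205 and Ifi209, on few counts, it was 0.563-fold and 2.37-fold. The log2 fold change was larger over all 6 libraries than without it for Ifi211 (0.64 against 0.27) and Ifi208 (0.20 against 0.06). The same held for Ifi207 (1.72 against 1.58) and Ifi203 (0.54 against 0.48). With a trend on gene length for each library taken out, 0 members were called over all 6 libraries and 3 without control replicate 3.

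Of the genes that act with Aim2 in the inflammasome and in pyroptosis, the inflammatory cell death it can start, 1 was called. The table holds 16 such genes. Without control replicate 3, of the 8 that could be tested, 0 rose and 1 fell, and the median was -0.13 on the log2 scale (all genes: -0.0025). Of all genes tested there, 3.81% rose and 3.43% fell. The gene that fell was Ninj1, which ruptures the plasma membrane late in pyroptosis (91.1 CPM in control replicates 1 and 2 and 77.0 CPM with RBPMS, log2 fold change -0.24 ± 0.06, edgeR adjusted p = 0.0208). The adaptor gene Pycard was at 0.377, 0.555 and 0.308 CPM in controls (replicates 1, 2 and 3) and 0.0930 to 0.245 CPM with RBPMS, too low to be tested. Casp1 was at 0.629, 0.802 and 1.19 CPM in controls (replicates 1, 2 and 3) and 0.493 to 0.733 CPM with RBPMS. Il1b, which encodes a cytokine that the inflammasome matures, had 0 counts in every library. Nlrp3, a sensor of another inflammasome, had 2, 4 and 5 counts in controls and 9, 12 and 10 with RBPMS, and was not called without control replicate 3 (log2 fold change 1.43 ± 0.62, edgeR adjusted p = 0.183). There it passed the filter on low counts only through RBPMS libraries, where it is high, and it is 1 of the 8 tested. Over all 6 libraries it was too low to be tested. Pycard, Casp1, Il1b and Nlrp3 were named after their values had been seen, for their place in inflammasomes.

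In the list of cytosolic DNA sensing and nucleases 2 of 19 tested genes rose and 0 fell without control replicate 3 (of all genes tested, 3.81% rose and 3.43% fell), and the median log2 fold change was 0.03. These were Ikbke, a kinase that acts on interferon regulatory factors (means of 101 CPM over control replicates 1 and 2, 119 CPM with RBPMS, log2 fold change 0.25 ± 0.06, edgeR adjusted p = 0.0159), and Lrrc8a, a subunit of volume-regulated anion channels (0.40 ± 0.11, adjusted p = 0.0246). Lrrc8a had a log2 fold change of -0.01 over all 6 libraries, with control replicate 3 at 28.2 CPM against 13.2 and 15.3 CPM in the other controls. Of 18 tested interferon receptor and signal genes 0 were called in either fit by edgeR, with a median log2 fold change of 0.05 without control replicate 3. The 2 most abundant were Ifnar1, a chain of the type I interferon receptor, with a log2 fold change of 0.10 ± 0.05 (edgeR adjusted p = 0.211), and the transcription factor gene Stat3, with -0.09 ± 0.04 (adjusted p = 0.259).

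Interferon-induced GTPases, which act on vacuoles that hold pathogens, included 4 risers. Among 19 tested genes 4 rose and 0 fell without control replicate 3, and the list had a median of 0.33 on the log2 scale. Among all genes of that fit the shares were 3.81% and 3.43% and the median -0.0025. In this list 0 were called over all 6 libraries, where its median was 0.29. Gbp4 was at 134, 146 and 110 CPM in controls and 204, 210 and 190 CPM with RBPMS (log2 fold change 0.53 ± 0.05). Gbp6 (0.70 ± 0.11), Gbp9 (0.33 ± 0.05) and Gbp10 (2.07 ± 0.43, from 0.375 to 1.59 CPM) also rose. Over the 6 libraries the RBPMS values of all 4 lay above all controls, as for 12.2% of all genes tested. These 4 were picked by calls that used most of the same libraries, so their separation is no further evidence. Gbp10 passed the filter on low counts only through the RBPMS libraries, where it is high, with controls at 0.503, 0.247 and 0.176 CPM. The Gbp genes are also copies of one another in a cluster, so reads may be shared among them too, which was not measured.

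The genes whose levels followed the summed p200 level most closely over the 6 libraries were Daglb (Pearson r = 0.993 of log2 CPM), Parp6 (0.990), Ddx60 (0.979), Parp9 (0.978) and Armcx3 (0.978). They lead the tested genes outside the family whose symbol is not a placeholder and whose average log2 CPM reached 1. The 6 points are 3 libraries of each group, so a difference between groups alone gives a high r, and no test is attached. Ddx60, a helicase gene, and Parp9 were themselves called higher without control replicate 3 (log2 fold changes 0.57 and 0.28, edgeR adjusted p = 0.00880 and 0.00664).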

How the data were processed

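RNA was sequenced from 3 control and 3 RBPMS libraries of endothelial cells. The authors deposited 1 table of unnormalised counts, all whole numbers, beside gene names, loci and lengths. Per the labels' protocols, ribosomal RNA was removed from total RNA. FastQC, Salmon and the mm10 build are named in the submitters' processing notes; versions, use of strand and the way gene counts were derived are not stated there. The table's loci of the 14 p200 genes match GENCODE M21 (GRCm38).

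Counts were tested in R 4.3.3 with edgeR 4.0.16 (quasi-likelihood, filterByExpr with a minimum count of 10, TMM, group as the only term), over all genes, with Benjamini-Hochberg adjustment at 0.05. Standard errors are the fold change divided by the root of its F statistic. The filter asked for about 0.517 CPM with all 6 libraries. Levels are TMM-scaled CPM, with marker sums as CPM of the total count. Members and lists were chosen with earlier results of these data known. Named genes are Rbpms, all p200 genes and up to 4 called genes of each list by p (otherwise its 2 most abundant). Added to them are the 5 genes that correlate best with the summed level, outside the family and without placeholder symbols. Pycard, Casp1, Il1b, Nlrp3 and the leukocyte markers besides Cd68 are named outside this rule, after their values were seen. Alternatives were DESeq2 1.42.0, limma-voom 3.58.1, other scalings, filters and a replicate block, a length trend (loess span 0.3), a 1.5-fold threshold and leaving out each library. The fit was tried on simulated counts with known changes, of which no value is used here. Total counts of 15779567 to 23076124 a library set the depth.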

Additional observations from a re-analysis of the deposited data

How the results depend on the processing

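Over all 6 libraries 0 members were called in every edgeR and limma-voom setting tried except without control replicate 3, so that leaving out 1 library gave 0 to 3 members; DESeq2 called 1. All genes called there were 0, with 5 when no filter was used, 56 by DESeq2, 3 with a length trend taken out and 0 to 1022 when 1 library was left out, the highest without control replicate 3. Without control replicate 3 the 3 members called became 1 by DESeq2, which gave no adjusted p for Ifi207, Ifi208 and Ifi211 (unadjusted p = 1.49e-05 for Ifi207), and 0 against a 1.5-fold change, where 8 of all genes were called. With a further library left out 2 to 3 members and 415 (without control replicate 1), 627 (control replicate 2), 616 (RBPMS replicate 1) and up to 1017 (RBPMS replicate 3) of all genes were called. The ratio of the summed level was 1.14 without Ifi203 in both sets of libraries, and 1.40 (all 6) and 1.36 (without control replicate 3) without Aim2. Signs turned only for members that were not called. Ifi204 had a log2 fold change of 0.0103 without control replicate 1 (-0.15 without control replicate 2) and 0.096 without control replicates 1 and 3. Without control replicates 2 and 3 it was -0.16 for Ifi208 and -0.29 for Ifi211, and without RBPMS replicate 2 and control replicate 3 it was -0.11 for Ifi208. The causes were not tested. No pairing by replicate number was seen (correlations of same-numbered deviations from the group mean of 0.05, -0.03 and 0.00). This check cannot exclude a pairing, because control replicate 3 is part of the control mean and shapes all control deviations. With a replicate block 0 members were called over all 6 libraries, and 2 members and 917 genes without control replicate 3, Mndal losing its call (adjusted p = 0.0798). Fits that leave 1 control assume that it varies like the RBPMS libraries. Depth limits Ifi205, Ifi209 and Ifi211 most.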
